A study of Bos taurus with 6 samples.

Results

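The mitochondrial respiratory chain and ATP synthase are built from 5 complexes, and most of their subunits are encoded in the nucleus. The nuclear-encoded genes were taken here by name: NDUFA, NDUFB, NDUFC, NDUFS and NDUFV genes for complex I, SDHA to SDHD for complex II, CYC1 and UQCR genes for complex III, COX4 to COX8 genes for complex IV, and ATP5 genes for complex V. The rule found 86 of 21972 genes, with 39 in complex I, 4 in complex II, 9 in complex III, 16 in complex IV and 18 in complex V. The rule used no measured value. A name rule also takes in a few genes that are not structural subunits of the complex they are filed under. ATP5S (now DMAC2L) and ATP5SL (now DMAC2, a complex I assembly protein) carry an ATP5 name, COX7A2L is a supercomplex factor, and NDUFA4 is now assigned to complex IV. One gene, ENSBTAG00000020440, has no gene name and entered through its symbol, which it shares with ATP5J2.

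Longissimus dorsi muscle (LDM), the long muscle of the back, was taken from 3 Japanese black (Wagyu) cattle (libraries WC616, WC719, WC921) and from 3 Chinese Red Steppes cattle (libraries RC4, RC5, RC6). All were males of 28 months, fed hay and corn with no treatment named, and each gave 1 poly(A) RNA library. The males of one breed had the same father and came from the same farm, so an effect of breed, of father and of farm cannot be told apart. Expression was deposited as FPKM, fragments per kilobase of gene scaled to the total counted, and rested on 15438095 (RC6) to 16197141 (WC719) reads counted to genes. Markers of heart muscle did not reach a mean of 1 FPKM (3 of 3 found, NPPA and NPPB at 0), while the markers of slow fibres summed to 26557 FPKM or more in every library.

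In the inner mitochondrial membrane, complex I takes electrons from NADH and complex II from succinate, and both pass them to ubiquinone. Complex III hands them on to cytochrome c and complex IV to oxygen, while protons are pumped by complexes I, III and IV and flow back through complex V, which makes ATP. In muscle, slow oxidative fibres hold more mitochondria than fast glycolytic fibres, and several subunits of complex IV have a form made mainly in heart and skeletal muscle beside a general form.

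The genes of the chain were among the most abundant mRNAs of the muscle. Their median FPKM was 253, against 7.11 over the 9990 genes that averaged 1 FPKM or more and were tested, and 65 of the 86 stood among the 500 highest genes. A total of 70 had a mean of at least 100 FPKM and 5 a mean under 10. The genes were also short, with a median length of 648 bases against 1816.5 over all genes tested, and 63 of 86 were under 1000 bases, as were 19.6% of all genes tested. Among members averaging 10 FPKM or more, no library held fewer than 71 reads.

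**Figure D1:**
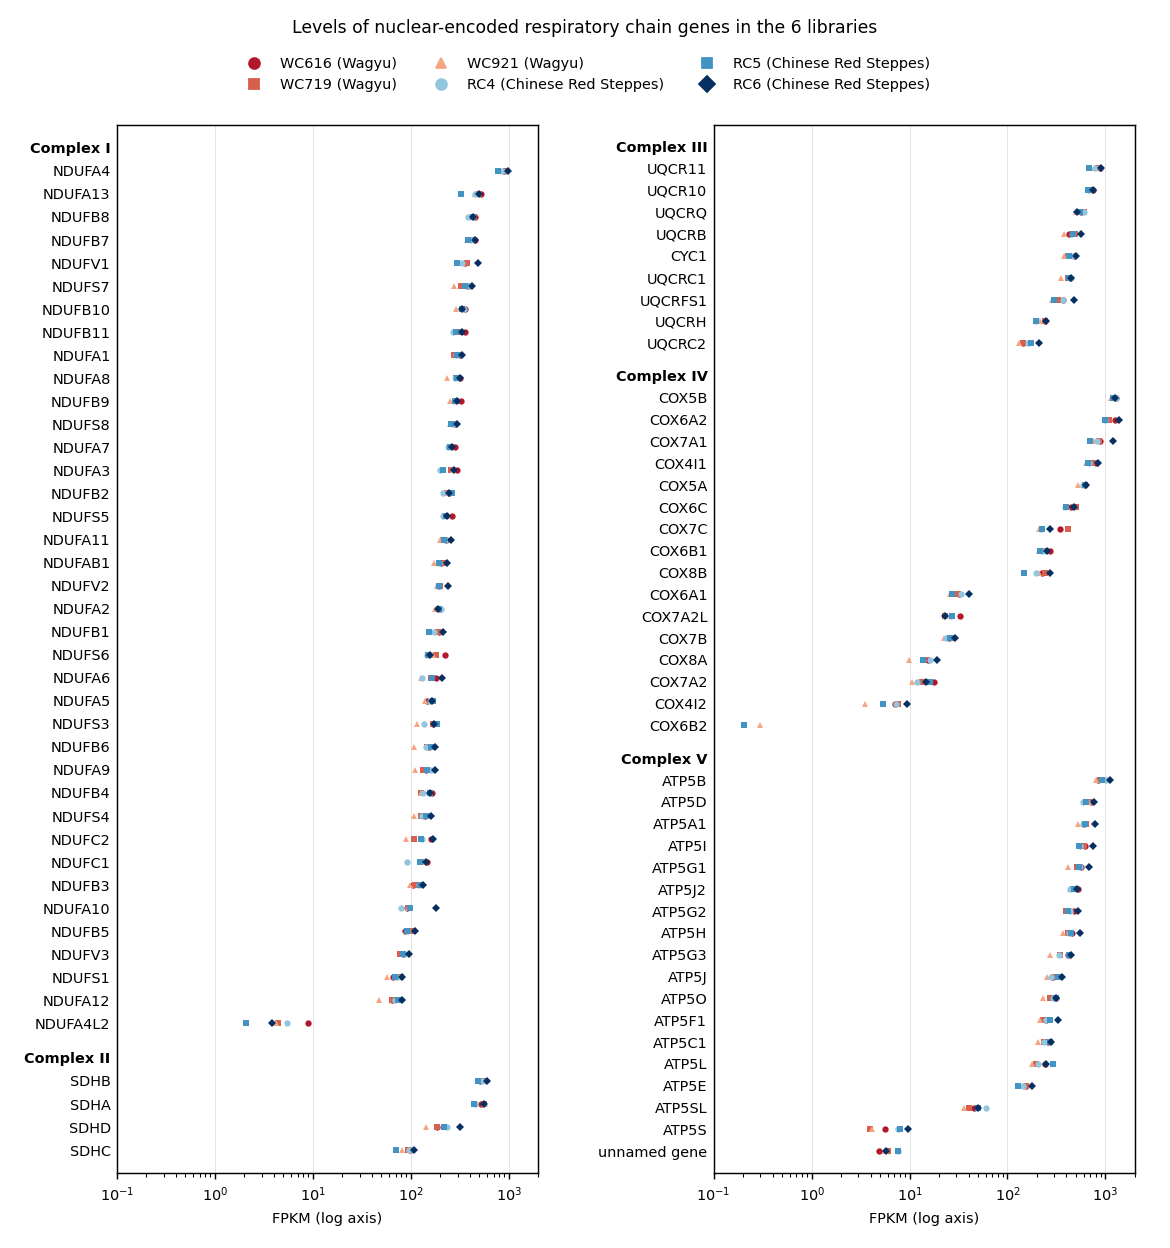
FPKM on a log axis of the genes of the chain, by complex, with 1 point for each of the 6 libraries (red shades, Wagyu; blue shades, Chinese Red Steppes). Values of 0, which occur only for COX6B2, are not drawn, and 1 gene of complex I is left out. Most genes lie between 100 and 1000 FPKM with the 6 points close together. COX7B, COX7A2L, NDUFA4L2, ATP5S, the unnamed gene and the replacement forms of complex IV lie far to the left.

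Within a complex the subunits were not equally abundant. In complex I the core subunits, which carry the flavin and the iron-sulphur clusters, had a median of 273 FPKM, and the 30 accessory subunits a median of 186. Among the core subunits NDUFS1, of the NADH-oxidising arm and named after its values were seen, stood at 70.9 FPKM, and NDUFV1, which binds NADH, at 363. NDUFA12 was the lowest gene of complex I apart from NDUFA4L2, the paralog of NDUFA4, at 67.1 FPKM. NDUFA4 itself had the highest level filed under complex I, at 877 FPKM.

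In complex II, the catalytic subunits SDHA and SDHB stood at 517 and 530 FPKM, and the membrane anchors SDHC and SDHD at 91.3 and 213. Complex III ran from 161 FPKM for UQCRC2, a core protein, to 807 for the small subunit UQCR11. COX5B, at 1223 FPKM, was the highest gene of complex IV and of the whole chain, followed by the muscle form COX6A2 at 1114. The highest gene of complex V was ATP5B, the catalytic beta subunit, at 929 FPKM. Subunit c, which forms the rotating ring, is made from 3 genes with different import sequences. Their summed FPKM was 1.32 to 1.72 times that of ATP5B across the 6 libraries.

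Each library was first set against the mean of the 6, since differences between single animals ran through most of the chain. RC6 was the highest of the 6 libraries for 55 of the 85 genes tested (64.7%), where it was the highest for 25.0% of all genes. WC921 was the lowest for 49 of 85 (57.6%), against 17.1% of all genes. After quantile normalization, a setting chosen after the data were seen, RC6 was the highest for 60 and WC921 the lowest for 53. Over all 9990 genes tested, these counts were 2455 and 1893 in that setting. In these bulk samples, fewer cells of a type and less RNA per cell cannot be told apart.

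Among the Chinese Red Steppes libraries, RC6 stood above both others for 71 of 85 genes (83.5%), against 39.8% of all genes. The median difference of RC6 from the mean of RC4 and RC5 was 0.24 on the log2(FPKM + 1) scale, or 1.18-fold, and 0.03 over all genes tested. By complex the median difference was 0.19 for complex I, 0.34 for II, 0.27 for III, 0.30 for IV and 0.26 for V. All complexes thus stood higher in RC6, with 12 of 15 to 4 of 4 genes above both other libraries.

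The gap was widest for NDUFA10, an accessory subunit of complex I. Its FPKM was 80.4 in RC4, 98.2 in RC5 and 180.7 in RC6, and the Wagyu libraries were at 92.5, 93.6 and 94.7. RC6 thus stood apart from 5 libraries that lay close together, by 1.02 on the log2 scale from RC4 and RC5. COX8B, the muscle form of subunit VIII, was at 195 FPKM in RC4, 149 in RC5 and 272 in RC6, a difference of 0.67. COX7A1, the muscle form of subunit VIIa, was at 814, 692 and 1187 FPKM, a difference of 0.66. NDUFV1 and COX4I2 differed by 0.62 and 0.54. At the other end, COX7A2L was lower in RC6 (23.0 FPKM) than in RC4 (26.4) and RC5 (27.3), and ENSBTAG00000020440 was at 5.79 against 7.69 and 7.65.

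**Figure D2:**
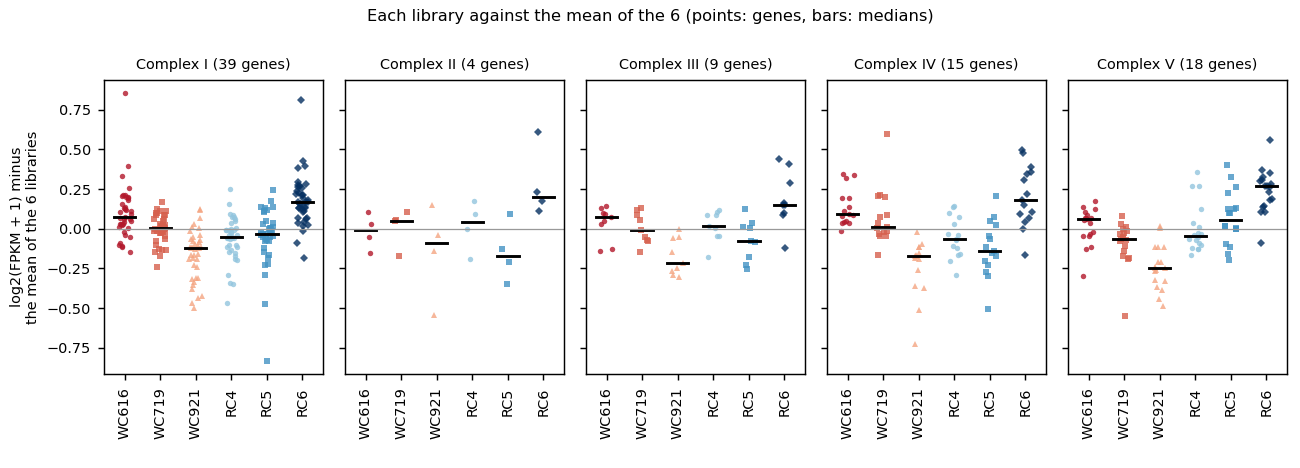
Deviation of each library from the mean of the 6 on the log2(FPKM + 1) scale, by complex. Each point is 1 gene and each bar the median over the genes of the complex. The RC6 median lies above 0 and the WC921 median below 0 in all 5 complexes, while the median of each of the other 4 libraries changes side between complexes.

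The summed markers of slow fibres were highest in RC6, and those of fast fibres were lowest there. The 10 slow-fibre markers summed to 81147 FPKM in RC6, against 30451 in RC4, 26557 in RC5 and a Wagyu range of 37463 to 50262, and 9 of the 10 were higher in RC6 than in both RC4 and RC5. MYL6B was the exception, at 56.0 FPKM in RC6. The fast-fibre markers summed to 37348 FPKM in RC6 against 70562 in RC4, 80351 in RC5 and 54664 to 67381 in Wagyu, with 0 of 9 tested higher in RC6. The fibroblast markers were lowest in RC6 (65.3 FPKM against 149 and 152), the smooth muscle and pericyte markers were higher there (323 against 131 and 134), and so were the fat cell markers (66.9 against 44.4 and 37.3). The part of these in the RC6 values of the chain was not tested.

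In the Wagyu libraries the order was also shared across the chain. WC616 was the highest of the 3 Wagyu libraries for 58 of 85 genes (68.2%), against 29.1% of all genes, and WC921 the lowest for 70 (82.4%), against 33.3%. The summed FPKM of all 86 genes was 28426, 27153 and 24305 in WC616, WC719 and WC921. Slow-fibre markers summed to 50262, 40969 and 37463 FPKM in the same libraries, and fast-fibre markers to 67381, 64170 and 54664. Their part in the order was not tested.

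The 13 subunits encoded by the mitochondrial genome followed this order in one breed only. Their summed FPKM was 44625, 56311 and 58004 in WC616, WC719 and WC921, the reverse of the nuclear order, and 60187, 59919 and 115251 in RC4, RC5 and RC6. The ratio of mitochondrially to nuclear-encoded FPKM was accordingly 1.57, 2.07 and 2.39 in the Wagyu libraries and 2.30, 2.33 and 3.71 in Chinese Red Steppes. RC6 thus stood higher than RC4 and RC5 by a median of 1.19 on the log2 scale for the mitochondrially encoded genes and of 0.24 for the nuclear-encoded ones. Per subunit, the mitochondrially encoded mRNAs of complex IV stood 25.6 to 46.2 times above the nuclear-encoded ones, and those of complex I 4.42 to 15.1 times. Mitochondrial mRNAs carry short poly(A) tails, and the part of poly(A) selection in these ratios was not tested.

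The comparison of the breeds asked whether the chain was expressed differently in the LDM of Wagyu and of Chinese Red Steppes. With limma on log2(FPKM + 1), two-sided and with Benjamini-Hochberg adjustment over the 9990 genes tested, 0 of 85 genes of the chain passed an adjusted p of 0.05, where 2 of all genes passed (0.0200%). COX6B2 was not tested, with 5 reads in all libraries together. At an unadjusted p under 0.05 there were 4 genes (4.71%), ATP5S, SDHD, ATP5SL and UQCRC2, all lower in Wagyu, against a background of 14.5% of all genes (8.64% higher and 5.87% lower in Wagyu). That background split depended on the scaling, with 863 genes higher and 586 lower as deposited, 688 and 749 after quantile normalization, and 639 and 827 after upper-quartile scaling. The direction of the members at this threshold depended on single libraries. Without RC6, 3 members were higher and 4 lower in Wagyu, against 12.6% of all genes in either direction. Without WC921, 2 were higher and 1 lower, against 8.35%. edgeR on reads recovered from the FPKM called 0 members and 8 of 11672 genes (0.0685%), and DESeq2 called 1 member, ATP5S, and 237 of 12200 genes (1.94%).

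The intervals were narrow enough to bound most of the differences. For 82 of the 85 genes the 95% interval of the fold change lay within 2-fold in either direction, as it did for 81.0% of all genes tested. The exceptions were NDUFA4L2, SDHD and ATP5S. The breeds did not overlap for 1 gene that was higher in Wagyu (background 11.4%) and for 9 that were lower (background 9.16%).

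A majority of the small differences had the same sign. In Wagyu 59 of the 85 genes were below Chinese Red Steppes (69.4%), against 46.3% of all genes, with a median log2 fold change of -0.06 against 0.03 over all genes. The 85 genes share their libraries and are not independent of each other. This majority rested on RC6 and WC921. It was 45 of 85 without RC6 (52.9%, against 44.7% of all genes) and 43 of 85 without WC921 (50.6%, against 46.5%), and 71 of 85 with quantile normalization (83.5%, against 51.4%). The median log2 fold change was -0.02 without RC6 and -0.0016 without WC921.

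**Figure D3:**
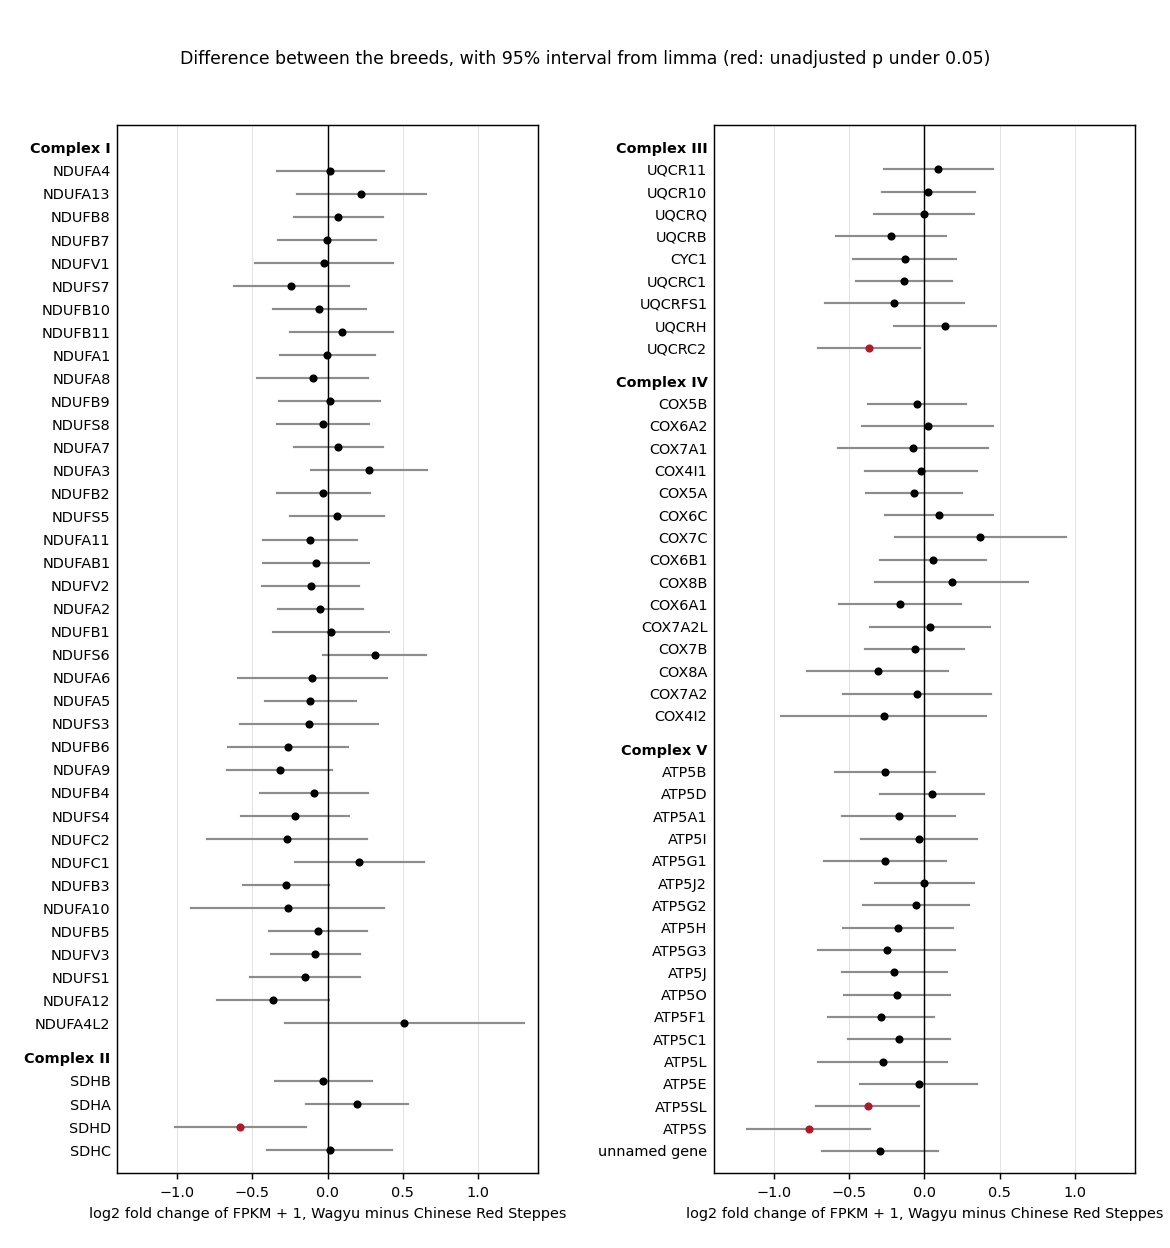
Log2 fold change of FPKM + 1 (Wagyu minus Chinese Red Steppes) of the genes tested, by complex, ordered by mean FPKM, with 1 gene of complex I left out. Points are the limma estimates, lines their 95% intervals, and red points mark an unadjusted p under 0.05, which none kept after adjustment. In complex V, 16 of 18 points lie below 0.

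In complex I no gene reached an unadjusted p under 0.05, and 26 of 39 were below 0 (median -0.06, and 0.03 without RC6). NDUFS6, a zinc-binding accessory subunit, was the one gene of the chain with every Wagyu library above every Chinese Red Steppes library. The Wagyu values were 222 FPKM (WC616), 179.6 (WC719) and 167 (WC921), and the Chinese Red Steppes values 147 (RC4), 148 (RC5) and 159 (RC6). The log2 fold change was 0.31 with an SE of 0.15 (limma adjusted p = 0.376), which did not pass the test.

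NDUFB3, an accessory subunit of the membrane arm, had the smallest p of complex I. In the same order of libraries it stood at 106, 110.4 and 97.4 FPKM for Wagyu, below 122, 125 and 134 for Chinese Red Steppes, a log2 fold change of -0.28. NDUFA12, an accessory subunit, was at 63.9, 65.0 and 47.6 FPKM against 69.6, 74.9 and 81.5 (-0.36). Both genes had no overlap between the breeds, with limma adjusted p-values of 0.354 and 0.355. NDUFC2, a subunit of the membrane arm, overlapped widely, with Wagyu values of 161, 108 and 90.3 FPKM and Chinese Red Steppes values of 131, 127 and 167 (-0.27, SE 0.23, adjusted p = 0.612).

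Complex II held the second largest difference of the chain and genes on both sides of 0. SDHD, a membrane anchor that also carries part of the ubiquinone site, had 186 FPKM in WC616, 184 in WC719 and 141 in WC921, while RC4 had 233, RC5 220.4 and RC6 315. All Wagyu libraries were thus lower, with means of 170.2 ± 25.0 and 256 ± 51.5 (SD, n = 3 each), and RC6 was far above the rest. The log2 fold change was -0.58 with an SE of 0.19 (limma adjusted p = 0.273, and 0.135 to 0.609 over the alternatives), and -0.42 without RC6. SDHA, the flavoprotein that oxidises succinate, had Wagyu values of 526, 555 and 572 FPKM and Chinese Red Steppes values of 450.3, 445 and 555, where only RC6 reached the Wagyu range (0.19, SE 0.14). SDHB and SDHC differed by -0.03 and 0.01, and the direction of SDHC turned under other scalings.

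In complex III, 6 of 9 genes were below 0 (median -0.13, and -0.06 without RC6). For UQCRC2 the Wagyu libraries gave 144, 143.5 and 132 FPKM, and the Chinese Red Steppes libraries 161, 173 and 212. The breeds did not overlap, and the log2 fold change was -0.37 with an SE of 0.15 (limma adjusted p = 0.324). UQCRB, which helps to bind ubiquinone, and UQCRFS1, the Rieske iron-sulphur protein, differed by -0.22 and -0.20, with overlap.

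In complex IV no gene reached an unadjusted p under 0.05 and none separated the breeds. The median was -0.05 (0.01 without RC6), and 9 of 15 genes were below 0. The widest differences were in COX7C, a small structural subunit, and COX8A (-0.31). COX7C had 340 FPKM in WC616, 411 in WC719 and 212 in WC921, while RC4 had 222, RC5 225 and RC6 271, so 2 Wagyu libraries were high and the other was the lowest of the 6 (0.37, SE 0.25, limma adjusted p = 0.515). COX6A1, the general form of subunit VIa, differed by -0.16.

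Complex V had the most uniform sign. Of its 18 genes 16 were below 0, with a median log2 fold change of -0.19. Across the scalings and tools this count lay between 16 and 18, and it was 13 without RC6 (median -0.13) and 14 without WC921 (median -0.10). ATP5S (-0.77), ATP5SL (-0.38) and the unnamed gene (-0.29) had the lowest values of complex V, and these counts and medians include them. All 4 stalk genes (ATP5F1, ATP5H, ATP5J and ATP5O) and all 3 genes of subunit c were below 0, none past the test. ATP5B, which forms ATP, gave 845, 890 and 797 FPKM for Wagyu, and 1005, 922 and 1113 for Chinese Red Steppes. The breeds did not overlap, and the log2 fold change was -0.26 with an SE of 0.14 (adjusted p = 0.442). ATP5F1, subunit b of the stalk, also did not overlap, at 246, 231 and 214 FPKM against 247, 272 and 329 (-0.29).

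ATP5S and ATP5SL, which bear an ATP5 name without being structural subunits, had the smallest p-values of complex V. ATP5S, described in bovine mitochondria as coupling factor B, had 5.63 FPKM in WC616, 3.90 in WC719 and 4.14 in WC921, while RC4 had 7.66, RC5 8.01 and RC6 9.61. Behind these values were 151, 107 and 113 reads in Wagyu and 208, 213 and 251 in Chinese Red Steppes. The log2 fold change was -0.77 with an SE of 0.18 (limma adjusted p = 0.187). With DESeq2 it was -0.91 with an adjusted p of 0.042, the one call among the members, and the adjusted p ranged from 0.042 to 0.513 over the alternatives. ATP5SL gave 45.8, 40.9 and 35.9 FPKM for Wagyu, and 59.9, 49.9 and 49.98 for Chinese Red Steppes, without overlap (-0.38, SE 0.15, limma adjusted p = 0.322).

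The share of each complex in the summed FPKM of the 86 genes does not depend on the common level of a library. Complex V took 23.8% in WC616, 23.4% in WC719 and 23.6% in WC921, but 24.5% in RC4, 25.9% in RC5 and 25.4% in RC6. Every Wagyu share was lower, and the means were 23.6% ± 0.17 and 25.3% ± 0.71 (SD, n = 3 each), while the summed FPKM of complex V itself overlapped (5740 to 6758 in Wagyu and 6412 to 7879 in Chinese Red Steppes). Without RC6 the Chinese Red Steppes mean was 25.2%. With ATP5S, ATP5SL and the unnamed gene left out, the shares were 23.3% to 23.6% in Wagyu and 24.3% to 25.8% in Chinese Red Steppes. In reads, which give long genes more weight, they were 27.4% to 27.5% and 29.0% to 30.2%. The last 2 settings were chosen after the data were seen, and the shares were not tested.

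The other complexes made up the difference. Complex I took 34.1% to 34.5% in Wagyu and 33.2% to 34.0% in Chinese Red Steppes, without overlap. With NDUFA4 counted to complex IV, complex I took 30.6% to 31.4% and 30.01% to 30.9%, which overlapped. Complexes II, III and IV overlapped, with means of 5.04% and 4.94%, 15.2% and 15.2%, and 21.8% and 21.0% in Wagyu and Chinese Red Steppes. Over all genes of the library, the chain had a share of the summed FPKM of 4.02% ± 0.26 (Wagyu) and 4.01% ± 0.27 (Chinese Red Steppes), with SD and n = 3 each. That sum includes the 13 mitochondrially encoded genes, which took 16.0% of it in RC6 and 6.64% to 8.94% in the other libraries. They thus lower the share of the chain most in RC6.

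**Figure D4:**
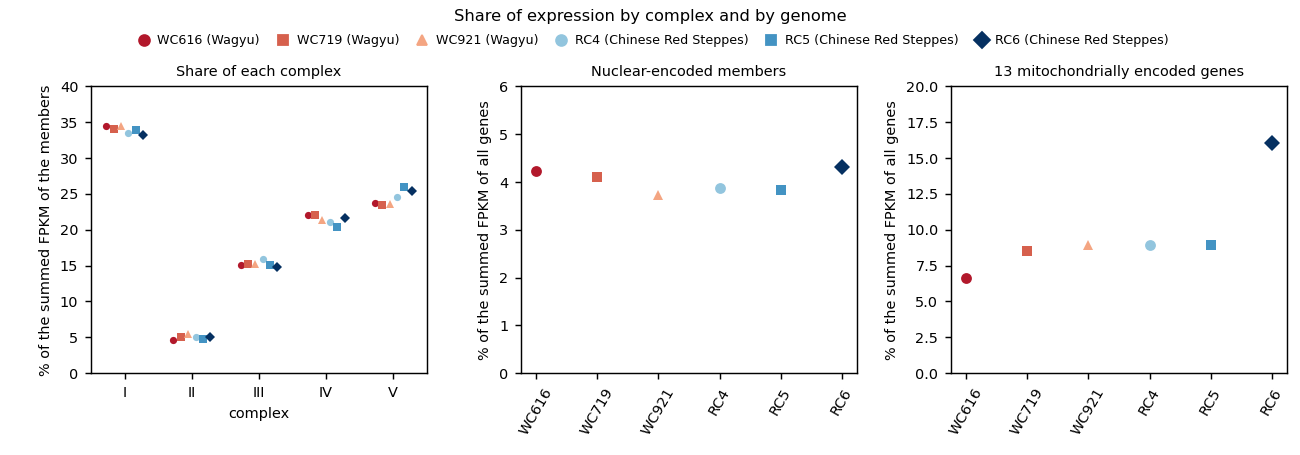
Left, share of each complex in the summed FPKM of the 86 genes, with 1 point per library. Middle and right, share of the nuclear-encoded genes and of the 13 mitochondrially encoded genes in the summed FPKM of all genes. The complex V points of Wagyu (23.4% to 23.8%) lie below those of Chinese Red Steppes (24.5% to 25.9%), and RC6 stands apart in the right panel at 16.0%.

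The muscle forms of complex IV dominated in all 6 libraries. COX6A2 stood 35.0-fold over the general form COX6A1 in mean FPKM, COX7A1 61.3-fold over COX7A2, and COX8B 14.7-fold over COX8A. For subunit IV the general form COX4I1 stood 108-fold over COX4I2, a form known from lung, and NDUFA4 stood 183-fold over NDUFA4L2, known as a hypoxia target in human cells. COX6B2, the testis form of subunit VIb, had 3 reads in WC921, 2 in RC5 and 0 in the other libraries, no more than the 3 reads per library that a count of 0 allows. That limit covers counting error only.

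Forms of the same subunit are alike in sequence, and the assignment of reads shared between them is not stated. The ratio between forms was compared across the breeds with a two-sided exact permutation test, which with 3 against 3 cannot give a p below 0.1. Of 9 pairs compared, only COX8B and COX8A did not overlap. Of their summed FPKM, COX8B made up 93.7% in WC616, 94.6% in WC719 and 95.5% in WC921, compared with 92.4% in RC4, 91.5% in RC5 and 93.4% in RC6. The mean log2 ratio was 4.03 ± 0.24 and 3.54 ± 0.20 (SD, n = 3 each), a difference of 0.49 (exact permutation p = 0.1, adjusted p = 0.6 over the 9 pairs). The other 8 pairs had exact permutation p-values of 0.2 to 1.0, and their breed differences ran from -0.49 for NDUFA4 to NDUFA4L2 up to 0.25 for COX4I1 to COX4I2. With 5 reads of COX6B2 in all libraries, the ratio of COX6B1 to COX6B2 could not tell a shift between forms from a change of COX6B1.

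The 3 genes of subunit c shared their product more evenly. ATP5G1 gave 36.5% to 41.6% of their summed FPKM, ATP5G2 29.8% to 39.6% and ATP5G3 24.0% to 31.1%. In WC921 ATP5G2 was the highest of the 3, at 39.6%, and in the other 5 libraries ATP5G1 was.

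**Figure D5:**
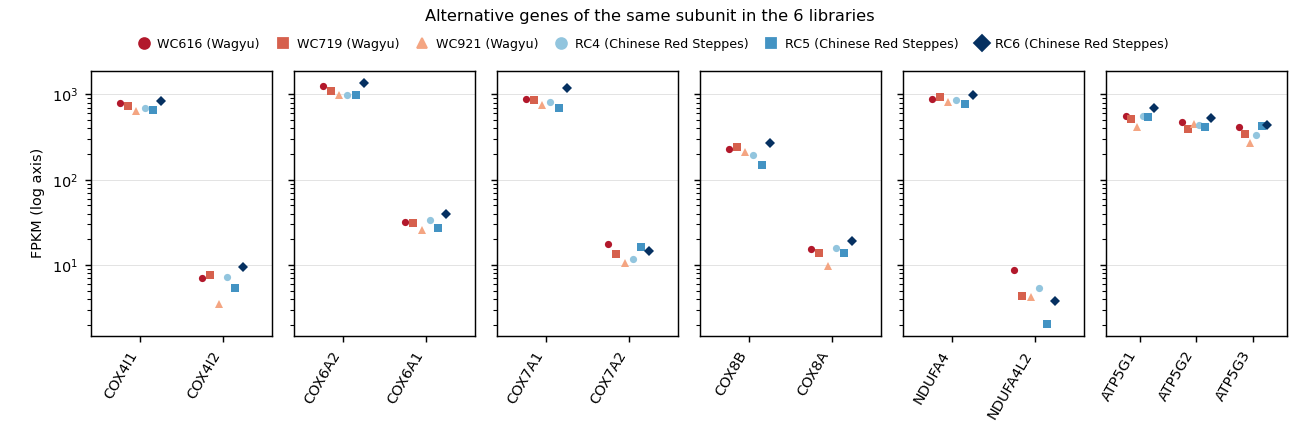
FPKM on a log axis of alternative genes of the same subunit, with 1 point per library. The muscle forms COX6A2, COX7A1 and COX8B stand 35.0-fold, 61.3-fold and 14.7-fold over their general forms in mean FPKM, and the 3 genes of subunit c lie within the same range.

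The other genes of the pathway were taken from a list of the mitochondrially encoded subunits, assembly factors, electron carriers, an inhibitor of ATP synthase and regulators. None of the 68 tested passed limma, and 12 had an unadjusted p under 0.05 (17.6%, against 14.5% of all genes). DESeq2 called 1 of them, ESRRA, against 1.94% of all genes, and edgeR called 0. Of the assembly factors tested, 9 of 11 for complex I, 2 of 2 for complex II, 3 of 5 for complex III, 12 of 18 for complex IV and 3 of 3 for complex V were below 0, as were 46.3% of all genes. At an unadjusted p under 0.05, 2 of complex I and 4 of complex IV were lower in Wagyu and none was higher, against 5.87% of all genes lower and 8.64% higher. The medians of the assembly lists were -0.18, -0.05, -0.09, -0.21 and -0.09, against 0.03 over all genes. Of the mitochondrially encoded subunits, 12 of 13 were below 0, with a median of -0.68. At an unadjusted p under 0.05, 3 of them were lower in Wagyu and 0 higher, and RC6 was the highest library for 11. All 4 genes of the electron carrier list were below 0 (median -0.06). Between RC6 and the mean of RC4 and RC5, the assembly factors had median log2 differences of 0.01 for complex I, -0.10 for complex II, 0.01 for complex III, 0.05 for complex IV and 0.22 for complex V, where 3 of 3 were higher in RC6 than in both. This contrast was not tested.

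NDUFAF4, an assembly factor of complex I, gave 6.44, 5.86 and 6.18 FPKM for Wagyu, and 8.23, 11.2 and 10.2 for Chinese Red Steppes. It was lower in every Wagyu library, with a log2 fold change of -0.60 and an SE of 0.16 (limma adjusted p = 0.207). SCO1, which delivers copper to complex IV, was at 6.77, 6.12 and 6.27 FPKM against 9.19, 8.10 and 8.42 (-0.37, SE 0.14, adjusted p = 0.308), again without overlap. The genes with the smallest p of the other groups included LYRM7 (-0.71), which handles the Rieske protein, and ATPAF1 (-0.22), a chaperone of the beta subunit. They also included SDHAF2 (-0.05), which attaches the flavin of SDHA, and ETFA (-0.30) of the electron transfer flavoprotein. None of these genes, LYRM7 included, reached an unadjusted p under 0.05. ATPIF1, the inhibitor of ATP synthase, averaged 903 ± 144 FPKM for Wagyu and 898 ± 181 for Chinese Red Steppes (SD, n = 3 each). ATP8, encoded in the mitochondrial genome, differed by -1.15 (limma adjusted p = 0.313). Together with ATP6, also mitochondrially encoded, it summed to 4724 FPKM in WC616, 7703 in WC719 and 7718 in WC921. The same sum was 7574 FPKM in RC4, 9151 in RC5 and 20465 in RC6, so RC6 stood far above the rest.

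ESRRA, a nuclear receptor that drives genes of oxidative phosphorylation, went the other way. It had 151 FPKM in WC616, 189 in WC719 and 178 in WC921, while RC4 had 119, RC5 90.9 and RC6 114. Every Wagyu library was higher, with a log2 fold change of 0.67 and an SE of 0.16 (limma adjusted p = 0.199). DESeq2 gave an adjusted p of 0.045, within a range of 0.045 to 0.515 over the alternatives. Of the 11 regulators tested, 5 were above 0 and 6 below, with 2 higher and 1 lower in Wagyu at an unadjusted p under 0.05. PPARGC1A, a coactivator of mitochondrial biogenesis named after its values were seen, gave 1.52, 0.97 and 0.93 FPKM for Wagyu, and 1.41, 1.14 and 4.11 for Chinese Red Steppes, and was highest in RC6. Its values lay near the limit of 1 FPKM for testing. RC6 was the highest library for 4 of the 11 regulators tested, against 25.0% of all genes. Their median difference of RC6 from RC4 and RC5 was 0.13, against 0.03 over all genes.

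Among markers of other cell types, those of fibroblasts had 5 of 5 tested above 0 (0 at an unadjusted p under 0.05) and sums of 111 to 204.7 FPKM for Wagyu and 65.3 to 152 for Chinese Red Steppes. Those of smooth muscle cells and pericytes had 5 of 5 above 0 (2 at an unadjusted p under 0.05) and sums of 205.1 to 362 against 131 to 323 FPKM. Both sums overlapped between the breeds. Endothelial markers had 4 of 5 above 0 (55.8 to 78.2 against 46.4 to 67.2 FPKM), macrophage markers 3 of 4 (6.89 to 14.3 against 4.91 to 11.3), Schwann cell markers 2 of 3 (38.9 to 65.2 against 27.3 to 53.5), fat cell markers 3 of 6 (42.6 to 49.6 against 37.3 to 66.9), slow-fibre markers 5 of 10 and fast-fibre markers 6 of 9. Red blood cell genes summed to 41.2 FPKM in RC5 and to under 1 FPKM in the other libraries. Of the 48 markers tested 0 passed limma, and 5 had an unadjusted p under 0.05 (10.4%, against 14.5% of all genes). DESeq2 called PDGFRB and S100B, against 1.94% of all genes, edgeR called 0, and the part of these cells in the values of the chain was not tested.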

How the data were processed

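Poly(A) RNA libraries of LDM were compared between 3 Wagyu and 3 Chinese Red Steppes cattle. The authors deposited FPKM values of all genes and, in a second table, raw read counts of 205 genes of their own comparison. That table also holds their means per breed, log2 fold changes and false discovery rates, which were not used. The methods name TopHat and Bowtie, and the submitters' processing notes name HISAT2 and the build UMD 3.1. Which of them made the values was not settled, and no source used here states the handling of strand and of shared reads.

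Breed was compared with limma (3.58.1, R 4.3.3, trend) on log2(FPKM + 1) for genes averaging 1 FPKM or more, two-sided, adjusted over all 9990. This scale understates the change of low genes. From the counts of the 205 genes the library totals were worked out, and FPKM then gave whole reads for 16770 of 16770 genes above 0 (100.0%, within 1e-06). These equal the deposited counts for 203 of 205 genes and were rounded for edgeR (4.0.16) and DESeq2 (1.42.0). Where DESeq2 left an adjusted p empty it was not counted. Other values came from Python (3.11.15), scipy (1.17.1), numpy (2.4.6) and pandas (2.3.3). The code was tested on simulated data. P-values set the difference between the groups against the spread between single animals within each group. These animals shared a father and a farm, so the spread is not that of a whole breed. For limma, the spread also draws on that of all genes tested.

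The alternatives were another pseudocount (0.1), no filter or a mean FPKM of at least 5, quantile and upper-quartile scaling, equal sums without mitochondrially encoded genes, limma without trend, both count tools, each library left out, and NDUFA4 moved to complex IV. Named genes are, per complex, up to 3 with the smallest p and the highest and lowest, both members of each pair of forms, NDUFC2, the 5 largest and 2 smallest RC6 differences, and the smallest p of each pathway group. The members, lists and rules were chosen with earlier results of these data known. All 86 names matched RefSeq, 18 of them under a newer name. No sequence was used here. The values of 1 gene of complex I are not reported here, though it is counted in the totals.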

Additional observations from a re-analysis of the deposited data

How the results depend on the processing

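No paired analysis was possible because the labels give the breeds no shared replicate numbers. Of the results recomputed under other settings, 407 values kept their direction and side of the threshold, or with no test moved by less than the spread, in settings that used all libraries, and 321 did so with 1 library left out. DESeq2 called 1 member (ATP5S, -0.91) where limma called 0. Calls over all genes were 0 to 8 under the other settings and 237 with DESeq2, and members at an unadjusted p under 0.05 were 2 to 8. Moving NDUFA4 to complex IV gave mean shares of 30.7% for complex I and 24.6% for complex IV, and reads in place of FPKM gave complex V 28.5%, by construction. A few log2 fold changes near 0 turned from positive to negative, none of them past the test. With quantile normalization these were COX6A2 (-0.021), COX6B1 (-0.0052), COX7A2L (-0.040), NDUFA4 (-0.0045), SDHC (-0.061). With upper-quartile scaling they were COX6A2 (-0.046), COX6B1 (-0.0095), COX7A2L (-0.025), NDUFA4 (-0.050), SDHC (-0.053), with edgeR COX6A2 (-0.018), NDUFA4 (-0.019), SDHC (-0.035), and with DESeq2 COX6A2 (-0.0097), NDUFA4 (-0.012), SDHC (-0.027). The cause was not tested. With 1 library left out, genes named here that changed direction ran over these ranges of log2 fold change: ATP5G2 (-0.13 to 0.045), COX4I1 (-0.093 to 0.083), COX4I2 (-0.45 to 0.024), COX6A2 (-0.071 to 0.18), COX6B1 (-0.026 to 0.16), COX7A1 (-0.24 to 0.15), COX7A2 (-0.23 to 0.13), COX7A2L (-0.12 to 0.13), COX8B (-0.026 to 0.40), NDUFA10 (-0.51 to 0.074), NDUFA4 (-0.061 to 0.11), NDUFV1 (-0.17 to 0.18), SDHB (-0.098 to 0.052), SDHC (-0.16 to 0.13), UQCR11 (-0.0071 to 0.19). Depth limits COX6B2, with 5 reads over all libraries.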
